A study of Mus musculus with 6 samples.

Results

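The metallothioneins and a set of proteins that sense and carry zinc were followed in mouse blood progenitors transduced with EVI1. The 9 genes were taken by gene annotation: the metallothioneins Mt1, Mt2, Mt3 and Mt4, their transcriptional activator Mtf1, the zinc exporter Slc30a1, and the zinc importers Slc39a8, Slc39a10 and Slc39a14. Each is read by 1 probe set of the array, so all 9 were measured, among 19937 genes in all. The rule itself uses no value, but the genes were proposed with the differences between these 6 arrays already known, so they count as chosen on the EVI1 minus EGFP contrast. Their differences and p-values below are therefore a description of the fit over all genes, not an independent test of the group.

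The cells were Lin- hematopoietic progenitors, that is, cells left after removal of lineage-positive ones, from Rosa26rtTA mice of the C57BL6 strain, in which a reverse tetracycline transactivator is expressed from the Rosa26 locus. Both groups were kept in serum-free medium with 50 ng/ml each of murine SCF, human Flt3 ligand and human IL-11 and 20 ng/ml of murine IL-3, received a lentiviral vector 24 h after isolation, and were given doxycycline (1 µg/ml) a day later. In the EVI1 group (3 arrays) the tetracycline-responsive vector carried EVI1, an IRES and EGFP, and in the EGFP group (3 arrays) the insert was just EGFP. Cells that expressed EGFP were sorted. The labels give 20 h from doxycycline to the sort in the series design, and 24 h from doxycycline to RNA in the treatment protocol. The labels name neither the number of animals nor separate transductions, so p-values measure only the spread between these arrays. The age of the mice is not given in the sources used here.

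Metallothioneins are small cysteine-rich proteins that bind zinc and copper and buffer both metals in the cytosol. When free zinc rises, the zinc finger factor MTF1 binds metal response elements in promoters and activates Mt1, Mt2 and the exporter gene Slc30a1. Proteins of the Slc30 family move zinc out of the cytosol, across the plasma membrane or into organelles, and proteins of the Slc39 family move it in. Metals, glucocorticoids, oxidants and inflammatory cytokines are all known to raise Mt1 and Mt2 transcripts.

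Promoters of the classical MTF1 targets Mt1, Mt2 and Slc30a1 are shown because each was called higher in the arrays labelled EVI1. Their rises were unlike in size, at log2 0.85, 3.78 and 0.71 in turn. A part of MTF1 in these rises was not tested. The windows come from RefSeq on GRCm38.p6 and run from 250 bases before the annotated start to 30 bases from it, 280 bases in all. Capitals mark the core of the metal response element, searched on both strands as TGCACNC and TGCGCNC, spellings that cannot coincide at a single position. A match on the opposite strand is capitalised as it reads on the printed strand.
Mt1 (chr8:94178839-94179118, plus strand): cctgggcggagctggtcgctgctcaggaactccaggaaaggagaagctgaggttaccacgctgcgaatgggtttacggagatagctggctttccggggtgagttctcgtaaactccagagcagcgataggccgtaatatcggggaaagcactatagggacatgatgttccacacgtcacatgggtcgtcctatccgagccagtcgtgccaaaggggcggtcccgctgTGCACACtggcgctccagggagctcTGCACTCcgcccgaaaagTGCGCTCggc
Mt2 (chr8:94172368-94172647, plus strand): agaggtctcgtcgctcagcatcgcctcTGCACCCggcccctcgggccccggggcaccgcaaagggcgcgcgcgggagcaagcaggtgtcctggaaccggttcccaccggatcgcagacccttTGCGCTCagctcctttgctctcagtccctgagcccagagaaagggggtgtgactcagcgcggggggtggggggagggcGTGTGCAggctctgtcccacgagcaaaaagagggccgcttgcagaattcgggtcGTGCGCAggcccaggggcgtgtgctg
Slc30a1 (chr1:191906531-191906810, plus strand): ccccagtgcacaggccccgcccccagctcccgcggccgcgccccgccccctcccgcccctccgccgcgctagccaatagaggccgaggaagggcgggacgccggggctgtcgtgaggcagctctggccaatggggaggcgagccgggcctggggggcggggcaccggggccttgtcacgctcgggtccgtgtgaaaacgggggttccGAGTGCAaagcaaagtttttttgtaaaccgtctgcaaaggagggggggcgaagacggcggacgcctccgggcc
Mt2 had 4 matches, 2 of them on each strand, and Mt1 had 3, all on the printed strand. Among all 32851 RefSeq promoter windows of this length, 24.1% held at least 1 match, 1.73% at least 3 and 0.405% at least 4. These counts and the positions that follow depend on the annotated start, and bases outside the windows were not searched. In Mt1 the match farthest upstream began 23 bases before the start, and the others began at bases 3 and 21 from it. In Mt2 the matches began 223, 128 and 50 bases before the start and at base 5 from it. Slc30a1 had 1 match, 43 bases before the start on the opposite strand. In the same windows Mt4 had 1 match, 1 of the 2 Slc39a8 windows had 1, and the windows of Mt3, Mtf1 and Slc39a10 held none of these letters. The table held windows for 8 of the 9 genes, the exception being Slc39a14.

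Before any direction is drawn, the transduced gene was examined. Mecom, the locus that encodes EVI1, read 6.39, 7.53 and 6.86 on the EGFP arrays and 6.29, 6.18 and 6.49 on the arrays labelled EVI1 at its brighter probe set, a log2 difference of -0.60 (limma adjusted p = 0.166; p = 0.2 by an exact two-sided permutation test, whose lowest possible p is 0.1). The dimmer probe set differed by -0.23, with groups that did not overlap (exact two-sided permutation p = 0.1). Without EGFP replicate 1 the brighter one differed by -0.87, at a limma adjusted p of 0.0306. Both group means of both probe sets lay under the background level of olfactory receptor genes given next, so these differences are uncertain in size. Neither probe set was higher with the EVI1 label, but their ability to read the vector's EVI1 sequence is unknown, and each direction that follows is that of the labels. The medians of the 6 arrays lay between 7.24 and 7.31, and EGFP replicate 2 had the lowest array weight (0.452, against 0.874 to 1.55 for the others). The cells carried stem and progenitor transcripts: all 8 measured markers of that list were above a background level in at least 1 group, here taken as the 95th percentile of the means of olfactory receptor genes (6.95 for EGFP arrays, 6.99 for EVI1 arrays). Under it in both groups were 6 of 10 T, B and NK cell, 2 of 9 mast cell and basophil and 1 of 5 eosinophil markers. In the neutrophil, monocyte and macrophage, erythroid and megakaryocyte lists 0 measured markers were. A level above this background was therefore not particular to stem and progenitor markers. Ly6a was not analysed here.

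Of the 9 genes, 7 passed the test in the fit over all genes, 4 higher and 3 lower in the arrays labelled EVI1. The metallothioneins Mt1 and Mt2, their activator Mtf1 and the exporter Slc30a1 rose, while the importers Slc39a8, Slc39a10 and Slc39a14 fell. Mt3 and Mt4 did not pass. Across all genes tested 18.2% passed, 9.06% upward and 9.18% downward. The groups did not overlap for the same 7 genes, which held for 32.6% of all genes. The median log2 difference of the 9 genes was 0.19, beside 0.006 over all genes. Cells of one type in smaller number and less RNA per cell cannot be told apart in such bulk samples.

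**Figure D1:**
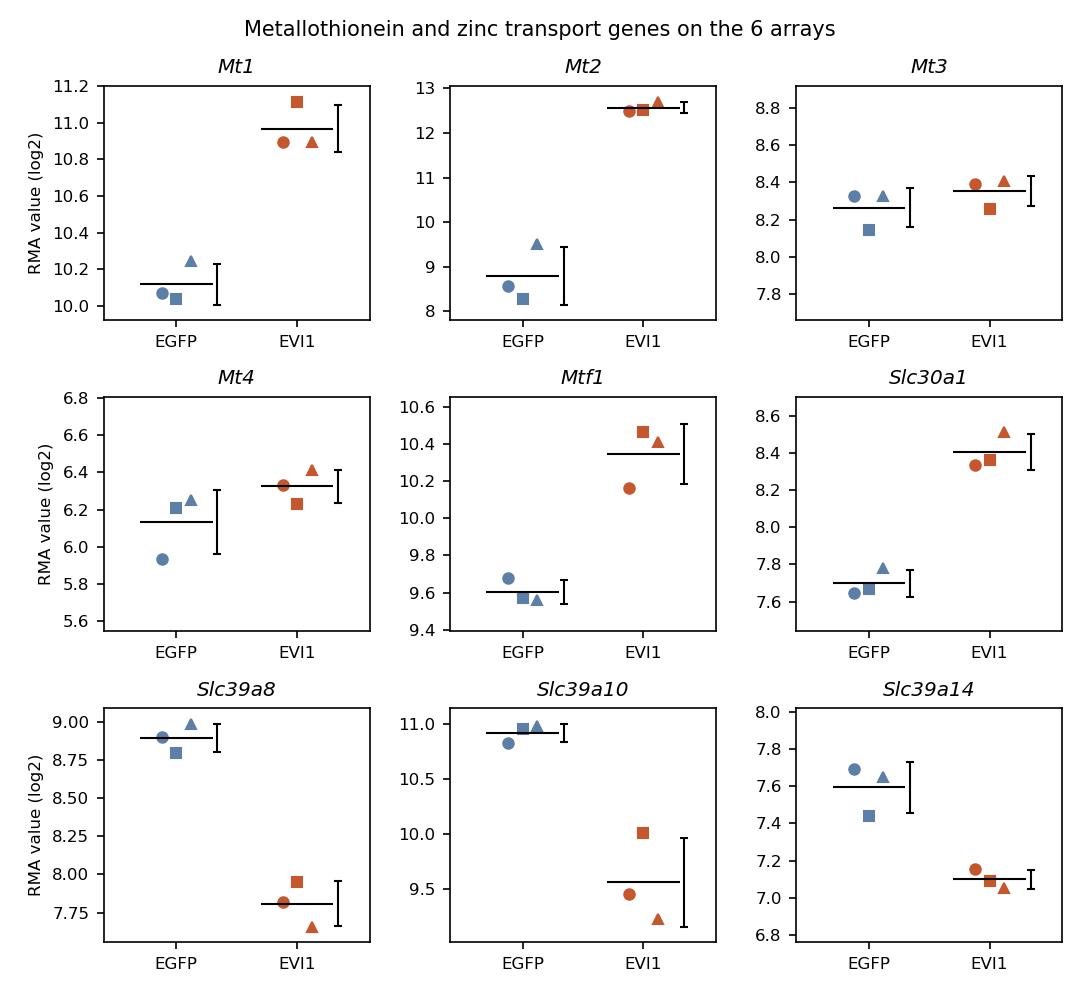
RMA values (log2) of the 9 genes on each array, with EGFP arrays in blue and arrays labelled EVI1 in orange; circles, squares and triangles are replicates 1, 2 and 3, horizontal lines are group means, bars are SD (n = 3), and each panel has its own axis. The groups are apart for all genes except Mt3 and Mt4, and Mt2 goes from a mean of 8.79 to 12.57.

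Mt2 had the largest difference of the 9 genes. Its RMA values, which are log2 intensities, were 8.58, 8.28 and 9.51 on the EGFP arrays and 12.49, 12.52 and 12.70 on the arrays labelled EVI1. The EGFP arrays were low and spread over more than 1 log2 unit, with replicate 3 the highest, whereas the EVI1 arrays were high and close together. The means were 8.79 ± 0.64 and 12.57 ± 0.12 (SD, n = 3 each), a 13.7-fold rise (log2 3.78 ± 0.28 SE, limma adjusted p = 0.000158). Only 0.0702% of all genes had a larger absolute difference. Across the 14 alternative settings the difference stayed between 3.52 and 4.14.

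Mt1, its neighbour on chromosome 8, rose far less. Its values were 10.07, 10.04 and 10.25 on the EGFP arrays and 10.90, 11.12 and 10.89 on the arrays labelled EVI1. All EVI1 arrays were above all EGFP arrays, and the spread within each group was small, at 0.11 and 0.13 (SD, n = 3). The rise was 1.80-fold (log2 0.85 ± 0.12 SE, limma adjusted p = 0.00179), a size exceeded by 8.48% of all genes.

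The changes of Mt1 and Mt2 differed by 2.93 log2 units. Between arrays of the same replicate number Mt2 was higher with EVI1 by 3.91, 4.23 and 3.19, and Mt1 by 0.83, 1.08 and 0.65. In both genes the difference was widest for number 2 and narrowest for number 3. EGFP replicate 3 held the highest value of its group for both genes. These paralogs are close in sequence, and hybridisation of either transcript to the probes of the other was not tested.

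The remaining metallothioneins, Mt4 and Mt3, lie in the same cluster, on the far side of Mt2 from Mt1 in the RefSeq gene table. Mt3 is best known from brain and Mt4 from stratified epithelium. Mt3 read 8.33, 8.14 and 8.32 on the EGFP arrays and 8.39, 8.26 and 8.41 on the arrays labelled EVI1, which overlap. Its log2 difference was 0.09 ± 0.11 (SE, limma adjusted p = 0.708). Mt4 read 5.94, 6.21 and 6.25 against 6.33, 6.23 and 6.41, with both means under the olfactory receptor background. For Mt4 the difference was 0.19 ± 0.12 (SE, limma adjusted p = 0.379), so the large metallothionein rise was measured for Mt2, the smaller for Mt1, and none was called for Mt3 or Mt4.

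Mtf1, the zinc-sensing activator itself, was higher as well. The EGFP arrays read 9.68, 9.57 and 9.56 and the arrays labelled EVI1 10.16, 10.46 and 10.41. The EGFP arrays lay close together, and EVI1 replicate 1 was the lowest of its group but still above all of them. The rise was 1.67-fold (log2 0.74 ± 0.12 SE, limma adjusted p = 0.00350).

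Slc30a1 (ZnT1), the exporter that carries zinc across the plasma membrane, rose by an amount close to that of Mtf1. Its values were 7.65, 7.67 and 7.78 on the EGFP arrays and 8.34, 8.36 and 8.51 on the arrays labelled EVI1. The groups were well apart and replicate 3 was the highest in each. The rise was 1.63-fold (log2 0.71 ± 0.10 SE, limma adjusted p = 0.00268). Between arrays of the same number it was 0.69, 0.69 and 0.73, the most even difference among the 7 genes that passed, by the range over the numbers.

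Slc39a10 (ZIP10), a plasma membrane zinc importer, fell furthest. The EGFP arrays read 10.82, 10.95 and 10.98 and the arrays labelled EVI1 9.45, 10.01 and 9.22. EGFP arrays agreed closely, and the EVI1 arrays were lower and more spread, with replicate 2 the highest of them. The means went from 10.92 ± 0.08 to 9.56 ± 0.40 (SD, n = 3 each), a 2.57-fold fall (log2 -1.36 ± 0.19 SE, limma adjusted p = 0.00208). Leaving out single arrays moved the difference between -1.58 and -1.19.

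Slc39a8 (ZIP8), which imports zinc and manganese, fell 2.12-fold. It read 8.90, 8.80 and 8.98 on the EGFP arrays and 7.82, 7.95 and 7.66 on the arrays labelled EVI1, with no overlap and a similar spread in both groups. The log2 difference was -1.08 ± 0.12 (SE, limma adjusted p = 0.000637). With Mt2 and Slc39a10 it was among the 3 genes of the set that changed at least 2-fold, a size reached with a passed test by 5.90% of all genes.

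Slc39a14 (ZIP14), an importer of zinc, manganese and iron, had the smallest difference of those that passed. Its values were 7.69, 7.44 and 7.65 on the EGFP arrays and 7.15, 7.09 and 7.05 on the arrays labelled EVI1. The groups did not overlap, with EGFP replicate 2 the closest to the EVI1 arrays. The fall was 1.41-fold (log2 -0.49 ± 0.11 SE, limma adjusted p = 0.0164). Leaving out EGFP replicate 1 (limma adjusted p = 0.0543), EGFP replicate 3 (0.0625), EVI1 replicate 2 (0.0563) or EVI1 replicate 3 (0.0635) ended the call, while the difference stayed between -0.57 and -0.44.

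**Figure D2:**
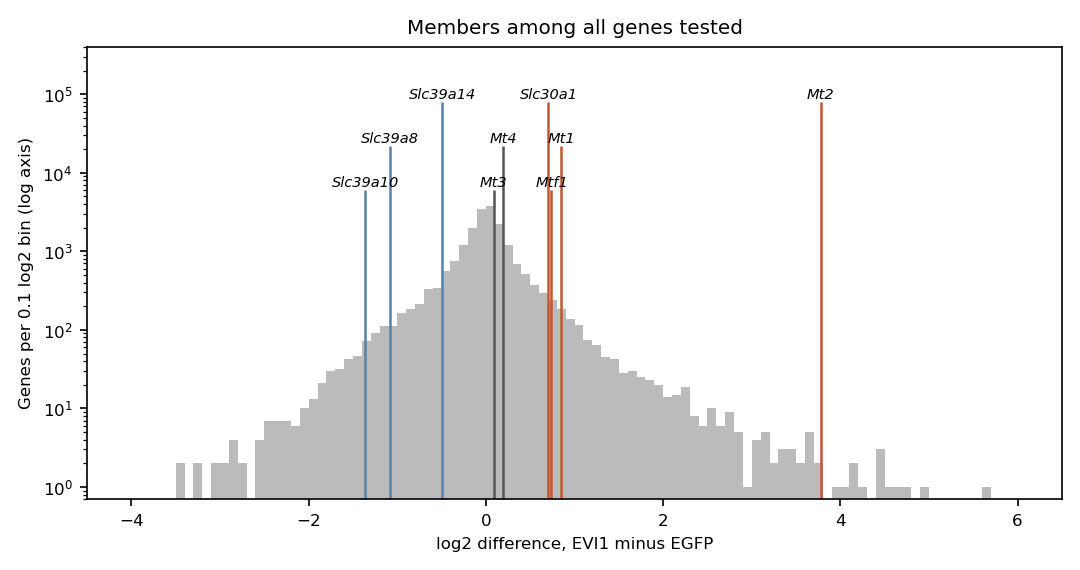
Histogram of log2 differences (EVI1 minus EGFP, x axis) of all 19937 genes, in bins of 0.1 with the number of genes on a log axis; vertical lines mark the 9 genes, orange where higher, blue where lower and grey where not called at a limma adjusted p of 0.05. Mt2 at 3.78 lies in the sparse right tail, whereas the other called genes lie between -1.36 and 0.85.

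Of the 20 other Slc30 and Slc39 genes, 3 rose and 17 did not pass, where 9.06% of all genes rose and 18.2% passed in either direction. Their median log2 difference was -0.01, beside 0.006 over all genes. At an unadjusted limma p under 0.05 the count was 3 up and 2 down of 20. Over all 19937 genes it was 2832 up and 2870 down. The 3 called transporters were all importers of the Slc39 family. Slc39a4 (ZIP4), known for zinc uptake in the intestine, read 9.32, 9.81 and 9.52 on the EGFP arrays and 10.53, 10.83 and 10.25 on the EVI1 arrays, a log2 difference of 0.99 ± 0.18 (SE, limma adjusted p = 0.00654). Slc39a1 (ZIP1), a widely expressed importer, differed by 0.64 ± 0.10 (limma adjusted p = 0.00421) at the brighter of its 2 probe sets. With the mean of both the difference was 0.48 (limma adjusted p = 0.0175). Slc39a13 (ZIP13), which releases zinc from intracellular vesicles, differed by 0.40 ± 0.11 (0.0349), and its call was lost without any array except EGFP replicate 2 (0.0826 to 0.110) and with trend and robust estimation (0.0646).

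Falls outside the set were called with a replicate block alone or in a few settings. Slc39a6 (ZIP6), the closest relative of Slc39a10, differed by -0.40 ± 0.12 (limma adjusted p = 0.0550, and 0.0458 with a replicate block). Slc30a5, which loads zinc into the early secretory pathway, differed by -0.62 ± 0.26 (limma adjusted p = 0.167, and 0.0293 with a replicate block). Counting the whole of both families, 1 of 10 Slc30 genes rose and 9 did not pass, and among 14 Slc39 genes 3 rose, 3 fell and 8 did not pass. Importers therefore moved in both directions. Slc30a8 and Slc39a12 were under the olfactory receptor background in both groups.

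**Figure D3:**
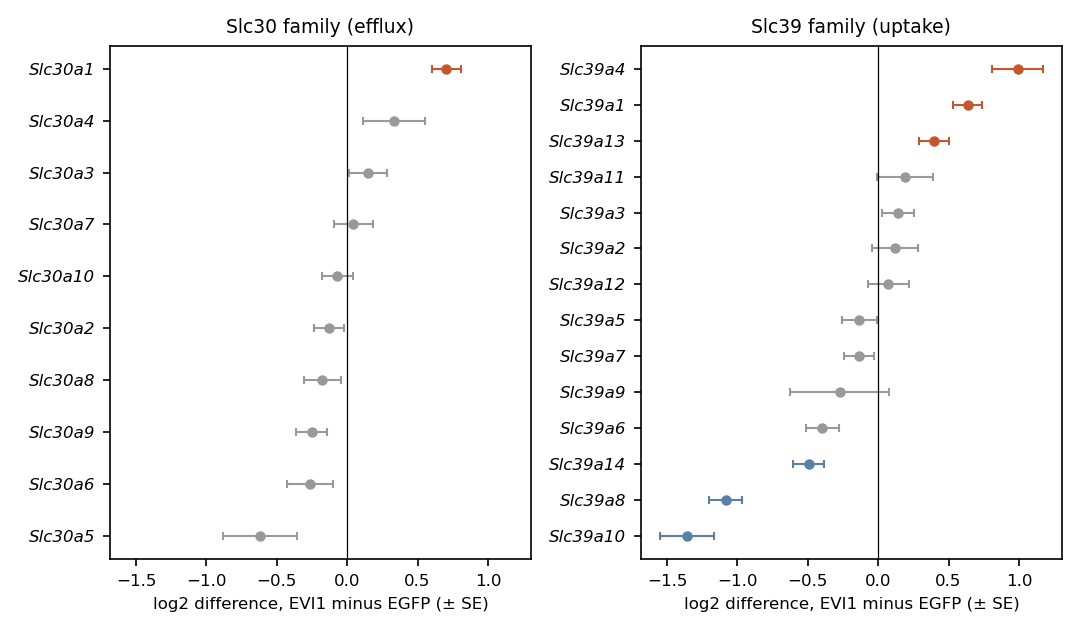
Log2 differences (EVI1 minus EGFP, x axis, points with SE bars) of the 10 measured Slc30 and 14 measured Slc39 genes, orange where higher, blue where lower and grey where not called at a limma adjusted p of 0.05. Slc30a1 is the called Slc30 gene, and the Slc39 genes run from Slc39a10 at -1.36 to Slc39a4 at 0.99.

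Copper, the other metal that metallothioneins bind, has its own carriers, and several of these were higher. Of 12 measured copper handling genes 4 rose and 8 did not pass, where 9.06% of all genes rose, with a median log2 difference of 0.27 beside 0.006 over all genes. Atox1, the chaperone that hands copper to the export pumps, read 9.97, 10.22 and 9.83 on the EGFP arrays and 11.55, 11.60 and 11.51 on the arrays labelled EVI1, a difference of 1.55 ± 0.12 (SE, limma adjusted p = 0.000210). Atp7a, the pump that receives it, read 8.97, 8.50 and 8.36 against 9.77, 9.82 and 9.92, a difference of 1.23 ± 0.16 (limma adjusted p = 0.00159). Both genes had no overlap between groups.

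The copper importer Slc31a1 (0.65 ± 0.16, limma adjusted p = 0.0226) and its relative Slc31a2 (0.78 ± 0.20, 0.0308) rose by less. Each of these calls was lost without any 1 of EGFP replicate 1 or 3 and EVI1 replicate 2 or 3, which left 2 called genes in the list. The copper enzyme gene Sod1 (0.11 ± 0.15) and its copper chaperone Ccs (0.29 ± 0.23) did not pass. Sco2 was not analysed here.

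Genes known to respond to cadmium or oxidants, as Mt1 and Mt2 do, were measured next. Of 10 such genes 6 rose and 1 fell, and 3 did not pass, where 9.06% of all genes rose and 9.18% fell; the median log2 difference was 0.74, beside 0.006 over all genes. Leaving out single arrays gave 4 to 7 higher. Nqo1, a quinone reductase and NRF2 target, went from 7.64, 7.65 and 7.50 on the EGFP arrays to 10.34, 11.04 and 10.77 on the arrays labelled EVI1 (3.13 ± 0.17 SE, limma adjusted p = 4.32e-05). Hmox1, heme oxygenase, went from 10.47, 11.03 and 9.80 to 12.41, 12.78 and 12.43 (2.11 ± 0.28, 0.00155). Gclm, the modifier subunit of the glutathione synthesis enzyme, rose by 1.09 ± 0.21 (0.00876).

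The heat shock branch of this list did not move as one. Hsph1, a cytosolic chaperone, fell by 1.04 on the log2 scale (limma adjusted p = 0.00117), Hspa1a rose by 0.54 ± 0.11 (0.0121), and Dnajb1 differed by -0.12 ± 0.13. Hspa1b was not analysed here.

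Glucocorticoids are a further known inducer of Mt1 and Mt2. Of 12 genes of that response 5 rose and 1 fell, and 6 did not pass, against the same shares of all genes, at a median log2 difference of 0.43. The receptor gene Nr3c1 (0.70 ± 0.13 SE, limma adjusted p = 0.00761), Tsc22d3, which encodes GILZ (0.74 ± 0.11, 0.00215), the kinase gene Sgk1 (0.82 ± 0.17, 0.0110) and Klf9 (0.62 ± 0.13, 0.0111) rose. Fkbp5, a chaperone of the receptor and a standard target, fell by 0.48 on the log2 scale (limma adjusted p = 0.0185). The fall of Fkbp5 was not called without EGFP replicate 3, EVI1 replicate 2 or EVI1 replicate 3, and without EVI1 replicate 3 the count of rises was 3.

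**Figure D4:**
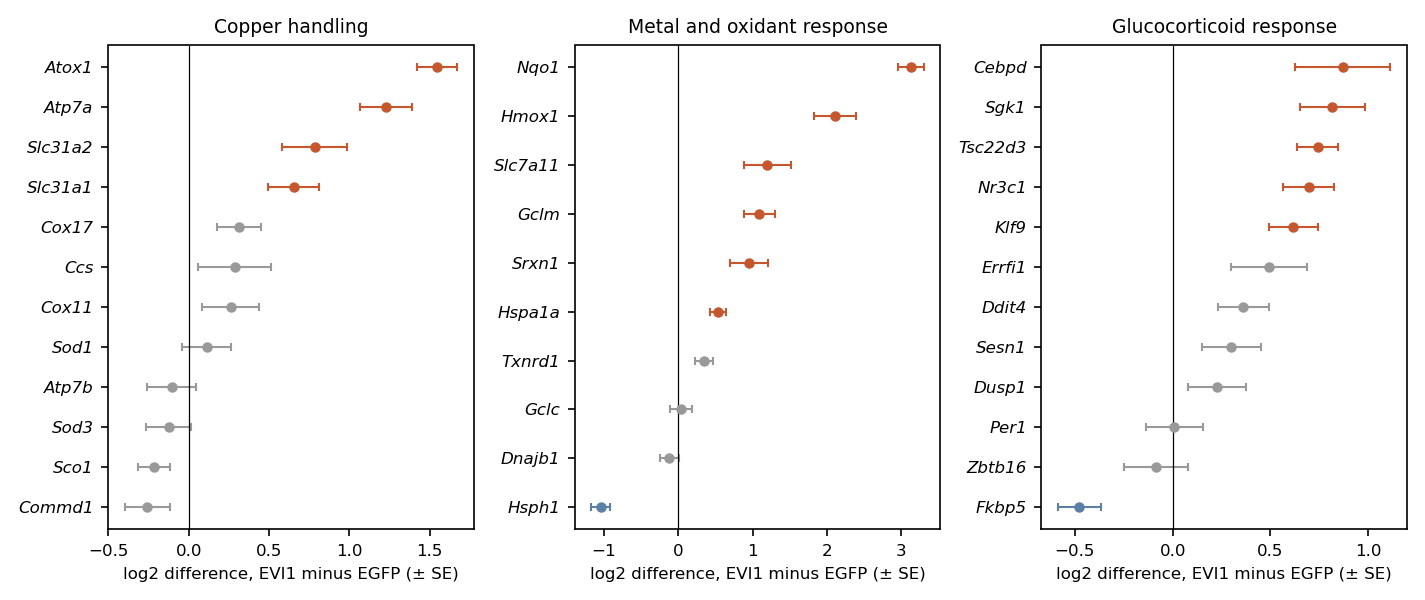
Log2 differences (EVI1 minus EGFP, x axis, points with SE bars) of the measured copper handling, metal and oxidant response, and glucocorticoid response genes, coloured orange where higher, blue where lower and grey where not called at a limma adjusted p of 0.05; each panel has its own x axis. Called genes are 4 of 12, 7 of 10 and 6 of 12 in turn.

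Markers of several cell types differed between the groups as well, against 9.06% of all genes higher and 9.18% lower. In the stem and progenitor list 7 of 8 measured markers fell, and the sum of their RMA values went from 81.4 to 82.4 on the EGFP arrays to 73.0 to 73.4 on the arrays labelled EVI1. Among mast cell and basophil markers 7 of 9 fell, with sums of 86.3 to 90.6 against 74.4 to 75.9. For neutrophils 6 of 13 fell and 2 rose (131.1 to 138.3 against 116.1 to 124.0), and for monocytes and macrophages 5 of 10 fell and 3 rose (95.7 to 100.002 against 89.3 to 94.7). Erythroid markers had 2 of 5 higher (38.3 to 38.5 against 40.1 to 40.9). Of 4 megakaryocyte markers 1 rose and 1 fell (38.0 to 39.5 against 38.1 to 38.97). Among 10 T, B and NK cell markers 2 fell (66.3 to 68.1 against 62.7 to 63.9). They were Nkg7 (log2 -3.06) and Cd3g (-1.28), while 8 did not pass and the median difference of the list was 0.005. Of 5 eosinophil markers 0 were called by limma (39.5 to 41.9 against 36.8 to 39.2). At an unadjusted limma p under 0.05, 3 of the 5 were lower, beside 2870 of all 19937 genes. The part of these shifts in the differences of the metallothionein and zinc genes was not tested.

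The 3 of the 9 genes with the smallest p were set against other genes by the shape of their profile over the 6 arrays. Each gene was centred on its own mean. The 11942 candidates lay above the olfactory receptor level, which left out Mt4. Symbols starting with Gm and a digit, Olfr, Mir, Snor or LOC, or ending in Rik, were also left out. The measure is the root mean square distance in log2 units, and since all arrays enter it, a small distance mostly means a similar difference between the groups. Nearest to Mt2 were Them5, an acyl-CoA thioesterase (0.27), the transcription factor Klf12 (0.34) and Naaa, a lysosomal amidase (0.38). Mt1 came 624th in that order. Nearest to Mt1 were Arntl2, a clock transcription factor (0.042), Rragb, a GTPase of amino acid sensing (0.055), and Rbbp9 (0.070). Among candidates from the set the nearest to Mt1 was Mtf1, in place 69 (0.13). Slc39a8 lay closest to the cell cycle genes Top2a (0.032), Brca1 (0.054) and Cks1b (0.054), which fell by 1.12, 1.12 and 1.19 on the log2 scale.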

How the data were processed

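Total RNA of sorted cells was amplified and hybridised to 6 single-colour mouse Gene ST arrays. The authors deposited log2 values made by RMA (background correction, quantile normalisation and summary of probes), per the submitters' processing notes, whose version is not given in the sources used here. RMA would hide a change of total RNA per cell. Precision is limited by the number of arrays, and there is no depth to give.

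Probe sets with 1 gene symbol (21640 of 34760) were used, and a gene took the probe set with the highest mean, which gave 19937 genes. Groups came from the titles. limma 3.58.1 in R 4.3.3 (lmFit, eBayes) compared 3 arrays with 3, two-sided, and p-values were adjusted by Benjamini-Hochberg over all genes; a gene was called at an adjusted p under 0.05. The fit was tested on simulated data. Deviations of same-numbered arrays from their group means correlated at r = 0.491, 0.269 and 0.197, so the replicate number was tried as a block. Other alternatives were the mean of probe sets, quantile normalisation, median centring, filters at the 25th and 50th percentile of level, trend and robust estimation, array weights and leaving out each array.

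The 9 genes and all lists were chosen with earlier results of these data known. Named genes are those 9, Mecom, up to 4 called genes with the smallest p in each list, and 3 nearest profiles for each of 3 genes; Slc39a6, Slc30a5, Sod1, Ccs, Dnajb1, Hspa1a and Fkbp5 fall outside that rule and were added once their values were known.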

Additional observations from a re-analysis of the deposited data

How the results depend on the processing

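All 9 genes kept the sign of their difference in every one of the 14 alternatives that tested them. In 9 of the 14 settings 7 genes were called, and in 5 settings 6 were, always 4 of them higher; the exception was Slc39a14, which the filter at the median level left out. The difference of Mecom ran from -0.87 to -0.30 when single arrays were left out. Over all genes the count of changes then ran from 2289 to 4098 (1179 to 2037 higher, 1110 to 2061 lower), and it was 4361 with a replicate block, which changed no call among the 9 genes. Among the other zinc transporters 1 was called lower after quantile normalisation, with array weights and with either filter on dim probe sets, and 2 with a replicate block. Leaving out single arrays gave 2 to 5 copper handling genes, 4 to 7 metal and oxidant response genes and 3 to 5 glucocorticoid response genes higher, with 0 to 1 lower in the last list. Those fits have fewer arrays, and the cause was not tested further. Probe sets near the olfactory receptor level, such as that of Mt4, can hide differences.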
